A study of Mus musculus with 12 samples.

Results

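The genes described here are the receptor chains, the transcription factor and a set of target genes of interleukin-4 and interleukin-13, 10 of the 53801 gene rows in each of 2 count tables. They were taken by gene name: the receptor chains Il4ra, Il13ra1, Il13ra2 and Il2rg, the transcription factor Stat6, and the alternative activation genes Arg1, Chil3, Retnla, Mgl2 and F13a1. The rule used only names, but it was set with earlier results of these data known. RNA was sequenced from sorted cells of cutaneous squamous cell carcinomas in mice of the strain FVB, in 12 libraries. The carcinoma cells were epithelial basal cells that carried Rosa-YFP, CD49f and CD29, and an mScarlet reporter of TGF-beta signalling split them into 3 reporter-negative and 3 reporter-positive libraries. The macrophages carried CD45 and F4/80 and were split by surface FceRIa, the alpha chain of an IgE receptor best known from mast cells and basophils, into 3 FceRIa-negative and 3 FceRIa-positive libraries. All 4 groups came from tumors, so none is a normal tissue, and the ages of the mice, the driver of the YFP mark and how many animals a library pools are not given in those sources that were used here. Nothing in the labels says that replicates came from separate animals, so p-values measure the spread between these libraries, which may be partly technical.

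Interleukin-4 binds the IL-4 receptor alpha chain (Il4ra), which then pairs with the common gamma chain (Il2rg) in the type I receptor or with Il13ra1 in the type II receptor, and interleukin-13 binds the type II receptor through Il13ra1. Il13ra2 binds interleukin-13 with high affinity and is regarded mainly as a decoy. Both receptors activate JAK kinases that phosphorylate STAT6, and in mouse macrophages STAT6 induces arginase 1 (Arg1), the chitinase-like protein Ym1 (Chil3), the secreted protein RELM-alpha (Retnla) and the lectin Mgl2, the classic markers of alternative activation. In human macrophages coagulation factor XIII subunit A (F13a1) is also induced by interleukin-4.

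Total counts ran from 27951632 to 35088897 in the carcinoma libraries and from 33704786 to 40041144 in the macrophage libraries. Levels are in CPM, that is, counts relative to the normalized size of the library. Each comparison was tested over all genes with edgeR's quasi-likelihood test, once without pairing of the libraries (unpaired fit) and once with libraries of the same replicate number paired by a blocking term (paired fit), because such libraries deviated together. A gene is called at a Benjamini-Hochberg adjusted p under 0.05 over all genes tested. All differences are on the log2 scale, positive minus negative, with their standard errors. The macrophage libraries carried macrophage markers, with the sum of 8 at 13098 to 24244 CPM, and the carcinoma libraries carried keratinocyte markers, with the sum of 6 at 59135 to 70605 CPM. Both macrophage libraries numbered 2 have the word New in their column names, and no source used here gives its meaning.

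In the macrophages 9 of the 10 genes were expressed at levels that could be tested, and their differences between FceRIa-positive and FceRIa-negative cells went in both directions. In the paired fit Arg1, F13a1, Il4ra and Il2rg rose, Il13ra1, Chil3 and Mgl2 fell, and Stat6 and Retnla did not pass the threshold. That is 4 genes higher and 3 lower, against a background of 21.0% of 14988 genes called in the same fit (10.8% higher and 10.2% lower). The unpaired edgeR fit called 0 of the 9, and 0 of all genes, a background of 0%. In that fit 4 of the 9 and 2345 of all genes were under an unadjusted p of 0.05, and DESeq2 without pairing called Il4ra, F13a1 and Il13ra1 among 1263 genes. Without any overlap between the groups were 4 of the 9 genes, beside 21.4% of all genes tested. The median unpaired difference was 0.17 over the 9 genes and -0.00 over all genes tested. FceRIa-positive libraries also had more RNA of macrophage markers (sum of 8 at 21608 to 24244 CPM, against 13098 to 15573 CPM). They had less RNA of dendritic cell markers (sum of 7 at 16.4 to 29.1 CPM, against 55.6 to 99.7 CPM), Langerhans cell markers (sum of 3 at 72.7 to 93.9 CPM, against 367 to 950 CPM) and monocyte markers (sum of 6 at 512 to 946 CPM, against 873 to 1293 CPM). The sum of Langerhans cell markers was also 617 to 812 CPM in the carcinoma libraries, so that list is not particular to Langerhans cells. The part of the cells that these lists mark was not tested for any of the differences. In sorted populations fewer cells of a type and less RNA per cell cannot be told apart.

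**Figure D1:**
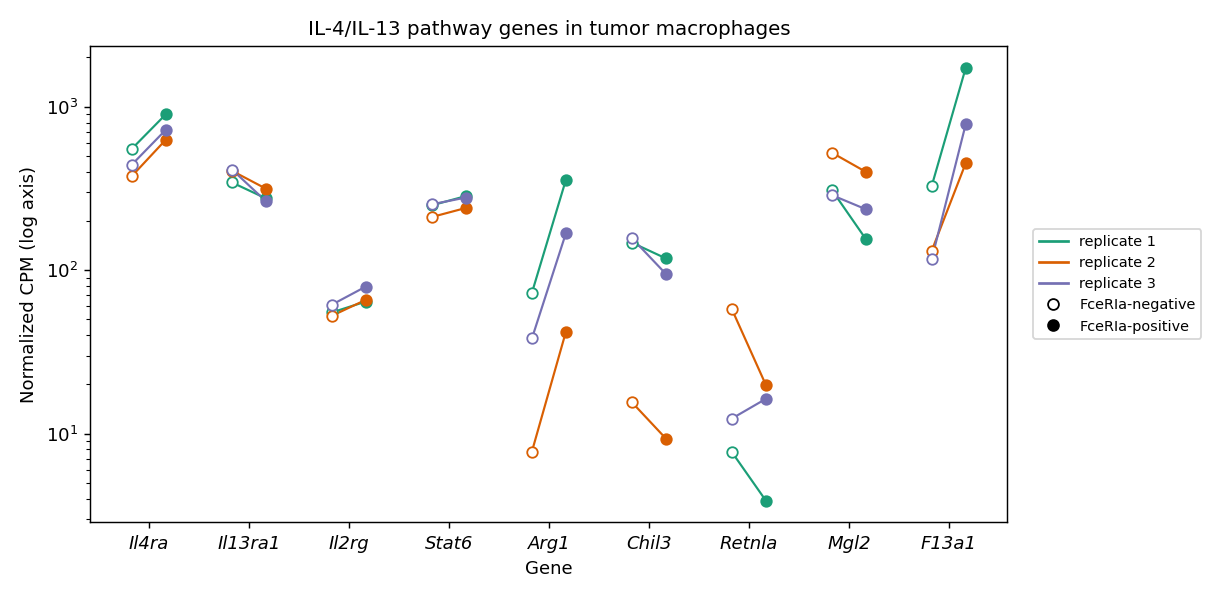
Normalized CPM (log axis) of the 9 expressed genes in the 6 macrophage libraries. Open points are FceRIa-negative and filled points FceRIa-positive libraries, and a line joins 2 libraries with the same replicate number. Il4ra, Il2rg, Stat6, Arg1 and F13a1 rise along every line, Il13ra1, Chil3 and Mgl2 fall along every line, and Retnla changes direction in replicate 3.

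Il4ra, the chain shared by both receptors (chr7:125552120-125579474, plus strand), was measured at 554, 377 and 443 CPM in FceRIa-negative replicates 1, 2 and 3 and at 901, 630 and 724 CPM in FceRIa-positive replicates 1, 2 and 3. All FceRIa-positive libraries were above all FceRIa-negative ones. The difference was 0.71 ± 0.20 in the unpaired fit (edgeR adjusted p = 0.139) and 0.72 ± 0.08 in the paired fit (edgeR adjusted p = 0.00105). Within pairs the ratio of positive to negative lay between 1.63 and 1.67, a narrower range than the 1.43-fold to 1.47-fold spread among libraries of one group. Il4ra kept its paired call without any one pair. Of the distinct 50-base stretches of its transcripts 8.44% also occur in Gm44876, a gene model on the other strand, and the strand setting of the counts is not known.

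Il13ra1, the partner chain of the type II receptor (chrX:36112110-36171259, plus strand), moved the other way. Its levels were 344, 405 and 413 CPM in FceRIa-negative cells and 275, 315 and 264 CPM in FceRIa-positive cells, and the groups did not overlap. The difference was -0.44 ± 0.13 in the unpaired fit (edgeR adjusted p = 0.155) and -0.44 ± 0.09 in the paired fit (edgeR adjusted p = 0.0126). Per kilobase of exon sequence, Il4ra stood at 0.996, 0.575 and 0.664 times the level of Il13ra1 in FceRIa-negative replicates 1, 2 and 3 and at 2.03, 1.24 and 1.70 times in FceRIa-positive replicates. Il4ra transcripts thus did not exceed those of Il13ra1 in any FceRIa-negative library and exceeded them in every FceRIa-positive one. As Il4ra was higher and Il13ra1 lower without overlap, the separation of their ratio follows from those differences and adds no evidence.

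Il2rg, the common gamma chain (chrX:101264378-101268255, minus strand), was the least abundant of the 3 detected chains, with 55.2, 52.6 and 61.5 CPM in FceRIa-negative and 64.3, 65.9 and 79.4 CPM in FceRIa-positive cells. The groups did not overlap, and the difference was 0.31 ± 0.12 in the unpaired fit (edgeR adjusted p = 0.285) and 0.31 ± 0.07 in the paired fit (edgeR adjusted p = 0.0176). The paired call was lost without pair 1 (edgeR adjusted p = 0.0574) and without pair 2 (edgeR adjusted p = 0.0902). Of the distinct 50-base stretches of Il2rg transcripts, 27.5% also occur in Gm20489, a gene model on the same strand that shares part of its exons, so reads from those stretches could belong to either. Il13ra1 exceeded Il2rg per kilobase 4.01, 4.95 and 4.31 times in FceRIa-negative cells and 2.75, 3.07 and 2.14 times in FceRIa-positive cells, again with no overlap. This separation, too, follows from the opposite differences of the single genes. For the type I receptor pair the groups overlapped, with Il4ra at 3.99, 2.85 and 2.86 times Il2rg per kilobase in FceRIa-negative and 5.57, 3.80 and 3.63 times in FceRIa-positive cells. The decoy Il13ra2 (chrX:147383476-147429192, minus strand) had between 0 and 3 counts per macrophage library, at or under the floor of 3 counts, and was not detectable at this depth.

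**Figure D2:**
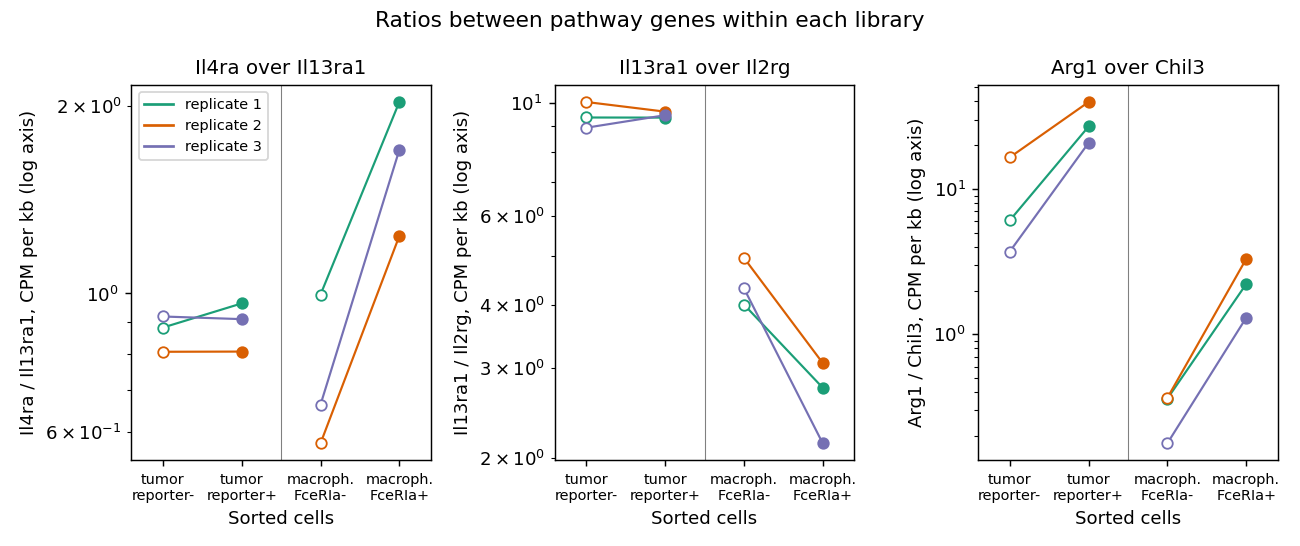
Ratios within each library of Il4ra over Il13ra1, Il13ra1 over Il2rg and Arg1 over Chil3, from CPM per kilobase of exon sequence (log axes), for carcinoma cells and macrophages. Open points are negative and filled points positive libraries, and a line joins 2 libraries with the same replicate number. In macrophages the plotted ratios separate the groups, with Il4ra over Il13ra1 between 0.575 and 0.996 in FceRIa-negative and between 1.24 and 2.03 in FceRIa-positive libraries. In macrophages each ratio divides genes that moved in opposite directions in every pair, so the separation adds no evidence beyond the single genes. In carcinoma cells Arg1 over Chil3 also separated the groups, at 3.71 to 16.5 in reporter-negative and 20.8 to 39.6 in reporter-positive libraries. There Chil3 had only 6 to 28 counts per library.

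Stat6, the transcription factor downstream of both receptors (chr10:127642986-127660957, plus strand), had the smallest difference of the 9 genes. It was measured at 249, 212 and 253 CPM in FceRIa-negative and 284, 240 and 278 CPM in FceRIa-positive replicates, and the groups overlapped. Every pair had more Stat6 in its positive library, by 1.10 to 1.14 times, but neither fit called it (0.17 ± 0.13, edgeR adjusted p = 0.635 unpaired, and 0.17 ± 0.08, edgeR adjusted p = 0.158 paired).

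The 5 target genes did not follow one pattern. Arg1 and F13a1 rose in FceRIa-positive cells in the paired fit, Chil3 and Mgl2 fell, and Retnla was lower in the positive library of pairs 1 and 2 and higher in that of pair 3. RefSeq promoter windows on GRCm38.p6, from 250 bases before to 50 after the annotated start, were found for 9 of the 10 genes (Arg1 had none) and were searched for the STAT palindromes TTCNNNNGAA, the spacing STAT6 is known to prefer, and TTCNNNGAA, which many STAT proteins bind. Each motif reads the same on both strands. The longer palindrome occurs in 6.95% and the shorter in 8.30% of 32851 windows of 300 bases. Among the 9 genes, the longer was found for Retnla, beginning 145 bases before the start, and the shorter for Chil3, beginning 172 bases before the start. The stretches from 250 to 101 bases before the start are shown for both and, as target genes without a match, for Mgl2 and F13a1, 5′ to 3′ on the strand of the gene, with the palindrome in capitals. F13a1 has 2 windows, neither with a match, and only the first is shown.
Retnla (chr16:48842359-48842508, plus strand): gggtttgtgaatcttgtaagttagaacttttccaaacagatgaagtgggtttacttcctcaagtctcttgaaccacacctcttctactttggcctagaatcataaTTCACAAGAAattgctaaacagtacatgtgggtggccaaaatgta
Chil3 (chr3:106167665-106167814, minus strand): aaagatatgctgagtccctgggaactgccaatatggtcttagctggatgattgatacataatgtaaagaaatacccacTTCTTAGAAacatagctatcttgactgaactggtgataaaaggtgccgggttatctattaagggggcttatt
Mgl2 (chr11:70130107-70130256, plus strand): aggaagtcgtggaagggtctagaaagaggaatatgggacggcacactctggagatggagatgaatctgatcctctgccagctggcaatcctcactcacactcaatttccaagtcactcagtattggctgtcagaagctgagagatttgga
F13a1 (chr13:37050345-37050494, minus strand): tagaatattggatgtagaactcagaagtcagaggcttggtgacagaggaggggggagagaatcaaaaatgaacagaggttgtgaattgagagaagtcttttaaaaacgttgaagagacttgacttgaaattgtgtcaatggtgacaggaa
A match is a description of these letters and does not show binding, and no match says only that the letters are not in this window.

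Arg1, which hydrolyses arginine to ornithine and urea (chr10:24915221-24927484, minus strand), was measured at 72.7, 7.77 and 38.2 CPM in FceRIa-negative replicates 1, 2 and 3 and at 357, 42.0 and 168 CPM in FceRIa-positive ones. The lowest positive library, replicate 2, lay below the highest negative library, so the groups overlapped. Among libraries of one group the level varied 9.36-fold in the negative and 8.50-fold in the positive cells. Within pairs the ratio was much steadier, between 4.40 and 5.41. The difference was 2.26 ± 0.96 in the unpaired fit (edgeR adjusted p = 0.323) and 2.28 ± 0.09 in the paired fit (edgeR adjusted p = 1.84e-05), and leaving out any one pair gave 2.22 to 2.36.

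F13a1, the transglutaminase subunit that cross-links fibrin (chr13:36867178-37050244, minus strand), had the largest differences of the 9 genes in both fits. Its levels were 329, 132 and 117 CPM in FceRIa-negative and 1735, 453 and 785 CPM in FceRIa-positive replicates, with no overlap. The difference was 2.36 ± 0.61 in the unpaired fit (edgeR adjusted p = 0.114) and 2.31 ± 0.17 in the paired fit (edgeR adjusted p = 2.10e-04). Positive replicate 1 was the highest library, and pair ratios ranged from 3.43 to 6.68. Per kilobase F13a1 had the highest mean level of the 10 genes in FceRIa-positive cells and the third lowest of the 9 tested in FceRIa-negative cells (147 and 28.6 CPM per kilobase).

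Chil3, which encodes Ym1 (chr3:106147554-106167564, minus strand), was measured at 147, 15.6 and 157 CPM in FceRIa-negative and 118, 9.33 and 94.9 CPM in FceRIa-positive replicates. Both libraries numbered 2 were low, and the groups overlapped. The spread among libraries of one group was 10.1-fold and 12.6-fold, far above the pair ratios of 0.600 to 0.801. The unpaired difference was -0.53 ± 1.03 (edgeR adjusted p = 0.902) and the paired difference -0.58 ± 0.10 (edgeR adjusted p = 0.00505). Without positive replicate 2 the unpaired value was -0.0017, and without negative replicate 2 it was -1.04. Of its 50-base stretches 26.9% also occur in other genes, mostly Chil4 and Gm6522, and Chil4 itself had 0 to 3 counts in each macrophage library. Neutrophil markers were likewise low in the libraries numbered 2 (sum of 6 at 126 and 143 CPM, against 248 to 657 CPM in the others). They also moved with FceRIa, from 657 to 363 CPM in pair 1, 126 to 143 CPM in pair 2 and 651 to 248 CPM in pair 3. In the paired fit 3 of 4 tested markers were lower, beside 10.2% of all genes tested. Chil3 is also expressed by neutrophils, and the part of such cells was not tested.

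Retnla (chr16:48842551-48844461, plus strand) was measured at 7.72, 57.7 and 12.4 CPM in FceRIa-negative and 3.90, 19.9 and 16.3 CPM in FceRIa-positive replicates. Here the libraries numbered 2 were the highest of their groups, opposite to Arg1 and Chil3. The difference was -0.96 ± 0.87 in the unpaired fit (edgeR adjusted p = 0.721) and -0.73 ± 0.32 in the paired fit (edgeR adjusted p = 0.151), and without negative replicate 2 the unpaired value turned to 0.43. Pair ratios ran from 0.344 to 1.32.

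Mgl2, also known as CD301b, a galactose-type lectin of macrophages and dermal dendritic cells (chr11:70130329-70137550, plus strand), was the most abundant of the 10 genes per kilobase over the 6 macrophage libraries. Levels were 309, 524 and 288 CPM in FceRIa-negative and 155, 399 and 236 CPM in FceRIa-positive replicates, with overlap between the groups. It was lower in the positive library of every pair, at ratios of 0.501 to 0.819. The unpaired difference was -0.50 ± 0.38 (edgeR adjusted p = 0.646) and the paired difference -0.56 ± 0.14 (edgeR adjusted p = 0.0233), a call lost without pair 1 (-0.35, edgeR adjusted p = 0.0813). Its neighbour and paralog Clec10a, which encodes CD301a, moved the opposite way, from 88.8, 132 and 71.1 CPM to 129, 188 and 141 CPM, with a paired difference of 0.68 ± 0.11 (edgeR adjusted p = 0.00340). The Mgl2 to Clec10a ratio per kilobase was 4.82, 5.50 and 5.60 in FceRIa-negative and 1.67, 2.95 and 2.31 in FceRIa-positive replicates, with no overlap. Mgl2 was lower and Clec10a higher in every pair, so the fall of their ratio in each pair follows from that. Of the 50-base stretches of Mgl2 13.1% occur in other genes, nearly all in Clec10a, so some reads may have been assigned to either. Dendritic cell and Langerhans cell markers also fell in FceRIa-positive libraries (5 of 7 and 3 of 3 lower in the paired fit, beside 10.2% of all genes tested).

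The ratio of Arg1 to Chil3 was formed after their values were seen, from one gene that was higher and one that was lower in every pair, so its separation of the groups follows from that choice. Per kilobase it was 0.361, 0.366 and 0.178 in FceRIa-negative replicates 1, 2 and 3 and 2.22, 3.30 and 1.30 in FceRIa-positive ones. On mean levels per kilobase the FceRIa-negative order was Mgl2, Il13ra1, Il4ra, Chil3, Stat6, Retnla, F13a1, Il2rg and Arg1, from 178 down to 17.8 CPM per kilobase. In FceRIa-positive cells it was F13a1, Mgl2, Il4ra, Arg1, Il13ra1, Stat6, Chil3, Il2rg and Retnla, from 147 down to 22.3 CPM per kilobase. In the first order only Mgl2 against Il13ra1 and Il13ra1 against Il4ra had ranges that did not overlap, and in the second only Il13ra1 against Stat6. The other neighbours in each order did not differ beyond the spread of their libraries.

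The ligands themselves were at low levels in the macrophages. Il4 was measured at 0.326 to 1.01 CPM and did not pass in either fit, and Il13 had 4, 0 and 1 counts in FceRIa-negative and 0 in all FceRIa-positive libraries. Mast cell and basophil markers, from cells known to make these cytokines, summed over 9 genes to 19.2 to 157 CPM in FceRIa-negative and 10.1 to 42.0 CPM in FceRIa-positive libraries. Of a list of these ligands and of other chains from receptors that use the gamma chain or a related chain, 7 of 9 were tested and 2 fell in the paired fit. The called share was 28.6%, beside 21.0% of all genes tested. Il2ra, the alpha chain of the interleukin-2 receptor, was at 17.9, 18.6 and 38.1 CPM in FceRIa-negative and 2.38, 5.08 and 5.48 CPM in FceRIa-positive replicates (paired -2.51 ± 0.20, edgeR adjusted p = 2.47e-04). Il2rb, its beta chain, was at 2.74, 0.279 and 3.61 CPM and at 0.414, 0.0546 and 0.295 CPM (paired -3.05 ± 0.33, edgeR adjusted p = 7.85e-04). T, NK and B cell markers, 7 genes, summed to 2.0 to 23.2 CPM in FceRIa-negative and 1.57 to 1.97 CPM in FceRIa-positive libraries, and the part of such cells was not tested.

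Of 16 JAK-STAT signalling genes, 15 were tested in the macrophages, and in the paired fit 1 rose and 4 fell. That is 33.3% called, beside 21.0% of all genes tested. The median unpaired difference of the list was -0.06. The kinase Jak2, which can serve the Il13ra1 chain, fell from 259, 285 and 377 CPM to 157, 178 and 173 CPM, with no overlap (paired -0.84 ± 0.10, edgeR adjusted p = 0.00128). The kinases Jak1, Jak3 and Tyk2 did not pass, with paired differences of 0.18, 0.08 and -0.16. The feedback inhibitors Socs1 and Cish (paired -0.66 and -0.76) and the phosphatase Ptpn6 (paired -0.34) fell, and the adaptor Irs2, which the IL-4 receptor recruits, rose from 71.2, 53.2 and 67.7 CPM to 110, 66.2 and 73.4 CPM (paired 0.35 ± 0.10, edgeR adjusted p = 0.0411).

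Further targets of interleukin-4 or STAT6 changed in both directions as well. Of 22 such genes, 21 were tested, and in the paired fit 7 rose and 7 fell. That is 66.7% called, beside 21.0% of all genes tested. The groups did not overlap for 9 of the 21, beside 21.4% of all genes tested. Like the other lists, this one was chosen with earlier results of these data known, so its shares carry no test. It also shares a gene with the dendritic cell marker list. The median unpaired difference of the list was 0.17. The mannose receptor Mrc1 rose from 1198, 1033 and 747 CPM to 3926, 2215 and 2701 CPM (paired 1.56 ± 0.16, edgeR adjusted p = 6.11e-04), and the V-ATPase subunit Atp6v0d2 rose from 11.7, 8.02 and 7.55 CPM to 37.0, 20.1 and 33.3 CPM (paired 1.71 ± 0.15, edgeR adjusted p = 3.75e-04). Both were without overlap. The CCR4 ligand Ccl22 fell from 27.996, 26.8 and 65.3 CPM to 3.04, 1.80 and 4.39 CPM (paired -3.66 ± 0.15, edgeR adjusted p = 2.54e-05), the largest difference of the list. Its partner Ccl17 fell from 37.2, 23.2 and 47.7 CPM to 11.7, 10.1 and 18.5 CPM (paired -1.41 ± 0.11, edgeR adjusted p = 2.09e-04), also without overlap. The lipoxygenase Alox15 fell at low levels, from 2.36, 3.84 and 3.88 CPM to 1.52, 1.28 and 1.56 CPM (paired -1.18 ± 0.23, edgeR adjusted p = 0.00932). E-cadherin (Cdh1), which is also expressed by Langerhans cells and keratinocytes, fell from 846, 547 and 1455 CPM to 217, 140 and 306 CPM (paired -2.06 ± 0.10, edgeR adjusted p = 5.71e-05). Negative replicate 3 was the highest for Ccl22, Ccl17 and Cdh1, and its Langerhans cell marker sum of 950 CPM was also the highest of the 6 libraries. Basal keratinocyte markers, 6 genes, summed to 2550, 1967 and 262 CPM in FceRIa-negative and 1801, 1286 and 234 CPM in FceRIa-positive replicates, lower in every pair. In the paired fit 4 of 6 were lower, beside 10.2% of all genes tested. Ccl22 and Ccl17 are abundant in activated dendritic cells, whose markers fell as given above, and the part of those cells and of keratinocytes was not tested.

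**Figure D3:**
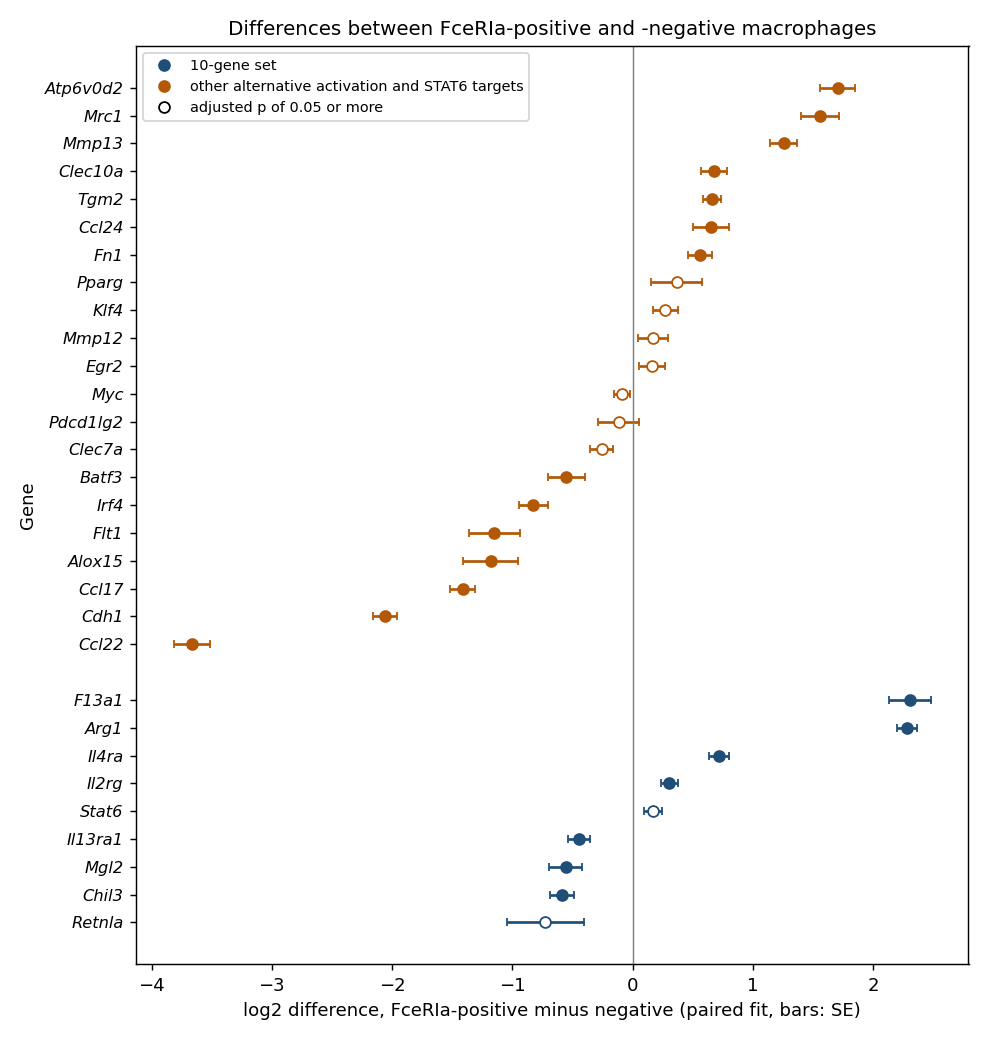
Paired log2 differences (FceRIa-positive minus FceRIa-negative) with standard errors as bars, for the 9 tested genes of the set (below) and the 21 tested genes of the list of other alternative activation and STAT6 targets (above). Filled points have an adjusted p under 0.05 and open points do not. Each group of genes spreads to both sides of 0, from F13a1 at 2.31 to Retnla at -0.73 and from Atp6v0d2 at 1.71 to Ccl22 at -3.66.

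Around Arg1, all 14 genes of arginine and polyamine metabolism were tested, and in the paired fit 2 rose and 2 fell. The called share was 28.6%, beside 21.0% of all genes tested. Nos2, the inducible nitric oxide synthase that competes with arginase for arginine and is a marker of classical activation, was at 12.04, 0.279 and 11.1 CPM in FceRIa-negative and 29.8, 2.02 and 16.4 CPM in FceRIa-positive replicates. It rose in the paired fit (1.19 ± 0.28, edgeR adjusted p = 0.0183), in the same direction as Arg1 and with the same low libraries numbered 2. The arginine transporter Slc7a2 rose from 54.4, 62.4 and 52.4 CPM to 87.4, 114 and 64.2 CPM without overlap (paired 0.62 ± 0.11, edgeR adjusted p = 0.00574). Ass1, which makes argininosuccinate, and Odc1, which makes putrescine from ornithine, fell by small amounts (paired -0.42 and -0.26). Per kilobase Ass1 was at 31.2, 23.3 and 43.5 CPM in FceRIa-negative and 20.1, 19.6 and 33.8 CPM in FceRIa-positive replicates. Odc1 was at 13.2, 11.2 and 18.3 CPM and at 10.6, 10.2 and 14.5 CPM. Both were highest in the libraries numbered 3, where the keratinocyte marker sums given above were lowest. The carcinoma cells express both genes at higher levels, and the keratinocyte markers were also lower in every pair. The part of keratinocytes was not tested. Arg1 stayed above Nos2 per kilobase in every macrophage library, by 6.80 to 55.1 times, and the ratio overlapped between the groups.

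Of 17 genes of classical activation, 16 were tested in the macrophages, and in the paired fit 1 rose and 4 fell. That is 31.25% called, beside 21.0% of all genes tested. The class II transactivator Ciita fell from 421, 529 and 547 CPM to 211, 345 and 288 CPM (paired -0.85 ± 0.10, edgeR adjusted p = 0.00104), and the co-stimulatory receptor Cd40 fell from 32.0, 34.6 and 46.9 CPM to 19.5, 23.6 and 25.9 CPM (paired -0.71 ± 0.08, edgeR adjusted p = 0.00111). The groups of these 2 genes did not overlap. The cytokine genes Tnf and Il23a also fell (paired -0.85 and -1.42), while Il6 rose from 0.704, 0.256 and 2.55 CPM to 4.39, 1.06 and 3.15 CPM (paired 1.52 ± 0.43, edgeR adjusted p = 0.0418). Among paralogs of Chil3 and Retnla, 3 of 7 were tested. Chil1 (paired -1.16) and Retnlg (paired -1.26) fell, 66.7% of only 3 genes, beside 21.0% of all genes tested. Without pair 1 the paired fit called 0 of them. Retnlg is best known from neutrophils, and it had 0.488 and 0.0546 CPM in the libraries numbered 2 against 5.06 to 12.8 CPM in the others.

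For each gene with at least 10 CPM on average, the genes with the most similar pattern over the 6 macrophage libraries were sought among 8630 genes, by the root mean square difference of centred log2 CPM. Among the genes nearest to Il4ra were Ap2a2 and Tcn2 (0.0771 and 0.0776). Il13ra1 was nearest to Mphosph9, Mum1 and Twsg1 (0.0473 to 0.0508), Il2rg to Snrnp35, Acot13 and Pld4 (0.0350 to 0.0597) and Stat6 to Rnf216, Bahd1 and Dhx8 (0.0215 to 0.0278). Mgl2 was nearest to the neighbouring pair Tmem176a and Tmem176b and to Bcl2a1d (0.0957 to 0.152). F13a1 was nearest to Slco2b1, Cd93 and Siglec1 (0.291 to 0.315), the last a sialic acid receptor of resident-type macrophages. Arg1 was nearest to Apold1 at 0.551, Nos2 at 0.761 and the neutrophil-attracting chemokine Cxcl1 at 0.764. Chil3 was nearest to Lilra6, H2-Q6 and Csrnp1 (0.323 to 0.427), and Retnla to Cd209a, Trim36 and H2-M2 (0.545 to 0.593). Such distances over 6 libraries describe these libraries only.

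In the carcinoma cells both type II receptor chains and Stat6 were clearly expressed, and most of the alternative activation genes were at low levels or not detectable. Of the 10 genes 7 could be tested between TGF-beta reporter-positive and reporter-negative cells. The unpaired fit called 0 of them, against a background of 0.809% of 13604 genes, and 1 of them was under an unadjusted p of 0.05. The paired fit called 2, Stat6 and Arg1, both higher, against a background of 18.0% (10.7% higher and 7.34% lower). The groups did not overlap for 1 gene, beside 28.2% of all genes tested. The median unpaired difference was 0.02 over the 7 genes and 0.00 over all genes tested.

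Il4ra was at 204, 211 and 200 CPM in reporter-negative and 209, 206 and 206 CPM in reporter-positive replicates 1, 2 and 3, with a difference of 0.02 ± 0.05 (edgeR adjusted p = 0.915). Il13ra1 was at 143, 162 and 135 CPM and at 134, 158 and 140 CPM, with a difference of -0.02 ± 0.10 (edgeR adjusted p = 0.930). Il2rg was at 9.82, 10.3 and 9.67 CPM and at 9.20, 10.6 and 9.52 CPM, with a difference of -0.03 ± 0.10 (edgeR adjusted p = 0.924). The groups of these 3 chains overlapped, and pair ratios lay between 0.937 and 1.04. Per kilobase Il13ra1 exceeded Il2rg by 8.94 to 10.1 times in these cells, and Il4ra stood at 0.806 to 0.964 times the level of Il13ra1. Il13ra2 had 0 to 6 counts per library, with all 3 reporter-positive libraries at 0.

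Stat6 was at 163, 165 and 159 CPM in reporter-negative and 185, 208 and 180 CPM in reporter-positive cells, with every positive library above every negative one. The difference was 0.23 ± 0.07 in the unpaired fit (edgeR adjusted p = 0.154) and 0.23 ± 0.05 in the paired fit (edgeR adjusted p = 0.0354). The paired call was lost without pair 1 (edgeR adjusted p = 0.130) or pair 3 (edgeR adjusted p = 0.128). Stat6 shares exon bases with Nab2 on the other strand, but 0% of its 50-base stretches occur in other genes. Arg1 was at 3.07, 12.5 and 4.03 CPM in reporter-negative and 8.13, 46.1 and 6.04 CPM in reporter-positive cells, higher in the positive library of each pair, by 2.64, 3.68 and 1.5 times. The groups overlapped. Its difference was 1.63 ± 0.92 in the unpaired fit (edgeR adjusted p = 0.400) and 1.38 ± 0.23 in the paired fit (edgeR adjusted p = 0.0151). Without positive replicate 2 the unpaired value was 0.11, and without pair 2 the paired value was 0.99. That last fit rests on pairs 1 and 3 only and called 5729 genes, against 2449 with all pairs, so its p-value is not given. Leukocyte markers moved in the same direction in every pair, with the sum of 8 at 20.2, 97.6 and 17.3 CPM in reporter-negative and 24.8, 130 and 21.2 CPM in reporter-positive replicates. So did neutrophil markers, a list whose S100a8 and S100a9 keratinocytes also express, with the sum of 6 at 52.7, 82.9 and 60.7 CPM and at 95.8, 378 and 95.4 CPM. In the paired fit 2 of 8 leukocyte and 2 of 4 tested neutrophil markers were higher, beside 10.7% of all genes tested. Pair 2 was highest for both lists, as for Arg1, and the part of such cells was not tested. The lymphocyte markers Cd3e, Cd3d, Ncr1 and Ms4a1, the eosinophil markers Epx, Prg2 and Il5ra and the dendritic cell marker Xcr1 were at 0 in all 6 libraries.

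Chil3 was at 0.213 to 0.853 CPM and F13a1 at 1.02 to 1.87 CPM in the carcinoma libraries, and neither passed in any fit of all 6 libraries. Mgl2 had 0 to 25 counts per library, highest in pair 2, and Retnla had 1 count in a single library and 0 in the others. These 4 genes stood at 0.555%, 0.240%, 0.0828% and 0.0278% of their mean CPM in the macrophages, beside 0.152% for leukocyte markers and 0.259% for macrophage markers. Il4ra and Il13ra1 stood at 34.1% and 43.2% of their macrophage means, Il2rg at 15.6%, Stat6 at 69.9% and Arg1 at 11.7%. The ranges of the carcinoma and macrophage libraries did not overlap for these genes except for Arg1. The tables were normalized separately and cell type and library batch cannot be told apart, so these shares carry no test. Per kilobase the order in the carcinoma cells was Stat6, Il13ra1, Il4ra, Arg1 and Il2rg at 40.1, 39.1, 34.3, 5.98 and 4.13 CPM per kilobase. Stat6 against Il13ra1 and Arg1 against Il2rg did not differ beyond the spread of their libraries.

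**Figure D4:**
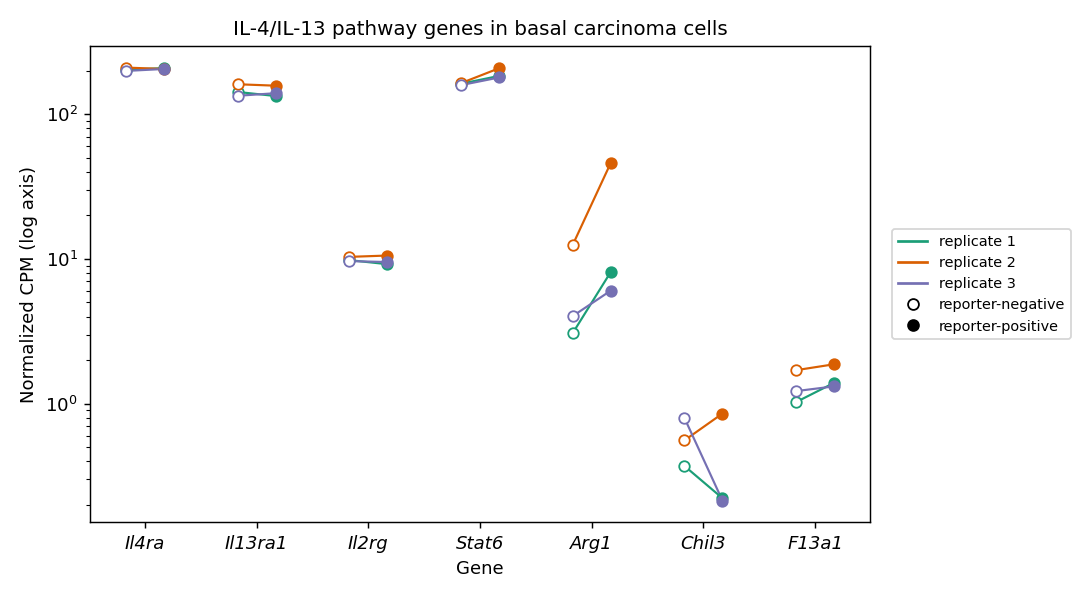
Normalized CPM (log axis) of the 7 tested genes in the 6 carcinoma libraries. Open points are reporter-negative and filled points reporter-positive libraries, and a line joins 2 libraries with the same replicate number. The receptor chains lie flat, Stat6 rises from 159 to 165 CPM to 180 to 208 CPM, and Arg1 rises along every line, with positive replicate 2 at 46.1 CPM.

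Around the receptors, Il4 and Il13 had at most 1 count in any carcinoma library. Of the ligands and gamma chain receptors 2 of 9 were tested and neither passed. All 16 JAK-STAT signalling genes were tested, and in the paired fit the adaptors Irs1 (0.65) and Irs2 (0.38) and the inhibitor Cish (0.41) rose. That is 18.75% of the list, near the 18.0% of all genes called in the same fit. Jak1, Jak2, Jak3 and Tyk2 did not pass, with paired differences of 0.03, 0.08, -0.18 and 0.11. Of the 22 further targets 14 were tested, and the paired fit called 6, all higher. The called share was 42.9%, beside 18.0% of all genes tested. The median unpaired difference of the list was 0.43. The 6 were Klf4 (0.71), a transcription factor of keratinocyte differentiation as well as of macrophages, Mrc1 (0.63), Cdh1 (0.56), Mmp12 (0.99), Mmp13 (0.39) and Myc (0.34). Whether STAT6 acts on these genes in the carcinoma cells was not tested. Macrophage markers were also higher in every pair, with the sum of 8 at 27.3, 69.5 and 26.5 CPM in reporter-negative and 33.3, 99.3 and 30.5 CPM in reporter-positive replicates. In the paired fit 2 of 8 were higher, beside 10.7% of all genes tested. Macrophages express Mrc1 and Mmp12. Mmp12 was highest in pair 2, like these markers, at 0.291, 0.714 and 0.325 CPM per kilobase and 0.533, 1.87 and 0.476 CPM per kilobase. Mrc1 was not, at 5.26, 4.09 and 4.74 CPM and 7.34, 7.15 and 7.21 CPM. The part of macrophages in either rise was not tested. Klf4 was at 251, 232 and 237 CPM in reporter-negative and 360, 473 and 354 CPM in reporter-positive cells. Clec10a had at most 0.759 CPM.

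Arginine and polyamine genes gave the one listed gene that the unpaired fit called in either cell type. Sat1, which acetylates spermidine and spermine for export or breakdown, rose from 131, 111 and 136 CPM to 198, 240 and 206 CPM (0.77 ± 0.11, edgeR adjusted p = 0.0477 unpaired and 0.00977 paired). That unpaired call held without positive replicate 2 and was lost without any other single library. Of 14 genes 12 were tested, and the paired fit called 58.3% of them, beside 18.0% of all genes tested. Beside Sat1, 6 fell in the paired fit. These were Srm (-0.32), the spermidine synthase, Oat (-0.22), Ass1 (-0.30), the transporter Slc7a1 (-0.46), the antizyme Oaz1 (-0.21) and Odc1 (-0.26), the last named after its values were seen. The median unpaired difference of the list was -0.21. Nos2 had at most 14 counts in a carcinoma library. Of 17 classical activation genes 10 were tested, and Tnf (0.36), Ptgs2 (0.36) and Gbp2 (0.90) rose in the paired fit. That is 30% of those tested, beside 18.0% of all genes tested. Of 7 paralogs 3 were tested and none passed, and Chil4 had 20 and 14 counts in the libraries of pair 2 and 0 in the others.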

How the data were processed

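Per the labels' protocols, RNA of the sorted cells was isolated with Trizol, and 100 ng of it went into each Illumina TruSeq v2 library. The authors deposited raw counts of reads per gene in 2 tables of 53801 rows, of which 0 name no gene. The submitters' processing notes name FastQC, STAR and mm10 (GRCm38) and give no versions. Which counting tool, strand setting and annotation release were used is not given in the sources used here. Reads of overlapping or similar genes can therefore not be separated. A further 4 columns that match no sample were left out.

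Titles of the samples gave groups and replicate numbers. The tests used edgeR 4.0.16 under R 4.3.3 (TMM, filterByExpr, quasi-likelihood test), separately for the 6 carcinoma and the 6 macrophage libraries. P-values were adjusted over the 13604 and 14988 genes that passed the filter, which held 99.9% of counts. Standard errors were derived from the F statistic. The floor of 3 counts equals 0.0698 to 0.107 CPM and covers counting error only. The main fit has no pairing and leaves 4 residual degrees of freedom. Deviations of carcinoma libraries from their group means correlated at 0.554, 0.733 and 0.560 within the pairs 1, 2 and 3. For the macrophage libraries the values were 0.729, 0.831 and 0.762. All exceed 0.1, so the paired fit, with 2 residual degrees of freedom, is given as well. What a number marks is not in the labels, and carcinoma numbers 1 and 3 correlated across numbers as closely (0.571 and 0.561).

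Gene models and lengths were taken from GENCODE M21 on GRCm38, and promoter sequences from RefSeq on GRCm38.p6. The 10 genes, the 6 further gene lists and the 12 marker lists were chosen with earlier results of these data known. Genes were named by a rule: the 10 genes, up to 6 called genes per list and comparison by smallest unpaired p, a fixed set of 10 (Il4, Il13, Jak1, Jak2, Jak3, Tyk2, Chil4, Clec10a, Mrc1 and Nos2), and the 3 nearest genes in pattern. One gene that the rule took is not reported here. Alternatives were the block, DESeq2 1.42.0, other scaling factors and filters, and leaving out libraries or pairs. Scripts were tested on simulated data.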

Additional observations from a re-analysis of the deposited data

How the results depend on the processing

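Most calls depended on the pairing. With the replicate block, edgeR called 2449 carcinoma genes (110 without it) and 3142 macrophage genes (0 without it). DESeq2 called 1163 and 1263 without the block and 1687 and 2807 with it, and edgeR with no count filter 209 and 623. Leaving out each library gave 0 to 621 carcinoma calls (621 without positive replicate 2) and 0 to 2 macrophage calls. With the block and without pairs 1, 2 and 3, the counts were 1553, 5729 and 1143 in carcinoma cells and 1317, 2672 and 3349 in macrophages. Of the 10 genes, the block called 2 in carcinoma cells and 7 in macrophages, DESeq2 0 and 3, DESeq2 with the block 2 and 7, and edgeR with no count filter 0 and 1. The block without pairs 1, 2 and 3 called 1, 3 and 1 of them in carcinoma cells and 5, 6 and 8 in macrophages. The other scaling factors and the filter at 1 CPM left both unpaired counts of the 10 genes at 0.

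In carcinoma cells JAK-STAT genes went from 0 called to 3 with the block, 2 with DESeq2 and the block, and 3, 7 and 0 with the block without pairs 1, 2 and 3. Further targets went from 0 to 6, 3 with DESeq2, 6 with DESeq2 and the block, 1 with no filter, 0 to 2 without a library, and 6, 10 and 4 without the pairs. Arginine and polyamine genes went from 1 to 7, 2 with DESeq2, 6 with both, 0 to 2 without a library, and 3, 9 and 2 without the pairs. Classical activation genes went from 0 to 3, 2 with both, and 1, 6 and 0 without the pairs. In macrophages all lists had 0 called in the unpaired fit. With the block, DESeq2, both, and no filter, ligands and gamma chain receptors had 2, 2, 2 and 1 called, JAK-STAT genes 5, 1, 5 and 1, further targets 14, 8, 13 and 6, and classical activation 5, 2, 5 and 1. With the block without pairs 1, 2 and 3 these lists had 3, 2 and 2, then 1, 3 and 5, then 10, 11 and 17, then 2, 7 and 6. Arginine and polyamine genes had 4 with the block, 2 with both and 0, 3 and 3 without the pairs, and paralogs 2, 2 and 0, 2 and 3.

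Directions turned for some genes that were called in neither the unpaired nor the paired fit of all libraries. Leaving out each library gave -0.0022 to 0.032 for carcinoma Il4ra, -0.10 to 0.049 for Il13ra1 (0.026 without positive replicate 1), -0.095 to 0.014 for Il2rg, and -1.39 to 0.43 for macrophage Retnla (0.43 without negative replicate 2). With the block and without pair 1 the values were 0.013 for Il13ra1 and 0.0041 for Il2rg, and without pair 3 it was 0.11 for Chil3 in carcinoma cells. The cause was not tested. Depth limits what can be said of Il13ra2, of Il13, and of Retnla, Mgl2 and Il4 in carcinoma cells.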
